A study of Mus musculus with 8 samples.

Results

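The 97 genes described here are the nuclear-encoded genes of the mitochondrial respiratory chain among the 55276 gene symbols counted in the study. They were chosen by symbol (Nduf followed by a, b, c, s or v; Sdha to Sdhd; Uqcr; Cox4 to Cox8; Atp5), and 11 pseudogene names with -ps were left out. The rule kept 4 other symbols that GENCODE annotates as processed pseudogenes, Ndufa11b, Ndufb4c and Ndufs6b in complex I and Cox6c2 among the isoforms, and they are part of the counts below unless stated. Complex I had 39 members, the complex I assembly factors 8, complex II 4, complex III 8, complex IV 12, the tissue isoforms and paralogues of complex IV subunits 9, and complex V 17. The cells came from the esophageal epithelium of C57BL6 mice aged 14 to 15 weeks, 2 female and 2 male, whose labels name no genotype change and no drug. Live cells that excluded DAPI and carried integrin beta-1 were sorted by Cyto-ID, a dye that gathers in autophagic vesicles, into a Cyto-ID Low (negative) and a Cyto-ID High (positive) fraction. Each animal gave 1 library of each fraction, so that 8 bulk RNA libraries from 4 animals were compared.

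Electrons from NADH enter the chain at complex I and those from succinate at complex II, which is also an enzyme of the citric acid cycle. They pass by coenzyme Q to complex III, by cytochrome c to complex IV and there to oxygen, while complexes I, III and IV pump protons across the inner mitochondrial membrane. Complex V, the ATP synthase, uses the returning protons to make ATP. Most subunits are encoded in the nucleus, a few in mitochondrial DNA, and only complex II is built from nuclear genes alone. Several subunits of complex IV exist as alternative isoforms whose use differs between tissues.

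Nuclear respiratory chain genes are known targets of the transcription factors NRF1 and GABP, and the promoters of 4 members whose mRNA differed between the fractions are shown first. Each run is the 250 bases before the transcription start in RefSeq, build GRCm38.p6, read 5′ to 3′ on the minus strand, on which all 4 genes lie. Capitals mark matches on either strand to GCGCNTGCG, a core of the NRF1 motif, and to CCGGAAG, a core of the GABP motif. Cox6a1 (chr5:115348959-115349208) and Sdhd (chr9:50603850-50604099) hold both motifs and their mRNA differed in opposite directions. Cox6b1 (chr7:30626115-30626364) and Cox6b2 (chr7:4753095-4753344) encode alternative isoforms of the same subunit that also moved apart, and the window of Cox6b2 holds neither motif.
Cox6a1: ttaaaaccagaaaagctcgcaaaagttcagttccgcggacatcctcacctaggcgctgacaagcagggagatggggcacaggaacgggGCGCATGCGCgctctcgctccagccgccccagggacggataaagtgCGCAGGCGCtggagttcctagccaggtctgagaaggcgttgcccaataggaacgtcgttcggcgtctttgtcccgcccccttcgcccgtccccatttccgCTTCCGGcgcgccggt
Sdhd: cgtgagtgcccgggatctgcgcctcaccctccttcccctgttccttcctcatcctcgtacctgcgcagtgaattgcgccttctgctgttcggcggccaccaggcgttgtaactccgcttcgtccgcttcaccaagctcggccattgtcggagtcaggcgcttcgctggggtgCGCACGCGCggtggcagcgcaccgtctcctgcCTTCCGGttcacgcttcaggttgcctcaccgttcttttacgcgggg
Cox6b1: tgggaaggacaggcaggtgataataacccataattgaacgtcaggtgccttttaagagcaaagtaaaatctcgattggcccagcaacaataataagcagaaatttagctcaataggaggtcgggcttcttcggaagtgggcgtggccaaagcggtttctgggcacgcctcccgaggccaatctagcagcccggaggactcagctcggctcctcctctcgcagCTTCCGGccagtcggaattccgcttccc
Cox6b2: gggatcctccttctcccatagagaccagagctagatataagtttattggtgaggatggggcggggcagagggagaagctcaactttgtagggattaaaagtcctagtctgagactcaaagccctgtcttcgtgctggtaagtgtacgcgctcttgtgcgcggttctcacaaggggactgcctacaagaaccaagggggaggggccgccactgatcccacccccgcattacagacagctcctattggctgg
A match is a run of letters and not a shown binding site, and no factor binding was measured in these cells.

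The libraries held 26285150 to 29301054 counts. Levels are given as CPM, counts relative to a common library total, with libraries scaled by edgeR's trimmed mean method (TMM), whose factors were 1.16 to 1.30 in Cyto-ID Low and 0.679 to 0.944 in Cyto-ID High. All 10 basal keratinocyte markers were lower in Cyto-ID High, with a summed level of 22000 to 26300 CPM in Low and 2880 to 4580 CPM in High. All 10 suprabasal markers were higher, with 8610 to 25500 CPM in Low and 141000 to 238000 CPM in High. The summed levels of 10 muscle markers (48.3 to 73.8 CPM in Low, 5.14 to 74.2 CPM in High), 6 fibroblast markers (308 to 480 and 36.6 to 456 CPM), 4 endothelial markers (8.57 to 17.9 and 0.926 to 20.8 CPM) and 5 leukocyte markers (41.5 to 72.2 and 4.68 to 65.9 CPM) overlapped between the fractions. Of these lists 1 gene each of muscle (Acta2), fibroblasts (Dcn) and leukocytes (Cd207) was lower in High by edgeR's test and none was higher, and Dcn did not overlap (113.9 against 15.25 CPM on average). The 4 brown fat markers summed to 2.42 to 8.34 CPM over all libraries. No marker of these lists was at 0 in every library. The High library of Male2 had the fewest genes with a count (22208) and the lowest sums of the muscle, fibroblast, endothelial and leukocyte markers. The part of these differences in the results below was not tested. In bulk RNA, fewer cells of a type and less RNA per cell cannot be told apart.

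Under TMM scaling more respiratory chain genes were higher than lower in Cyto-ID High, which turned around under scaling by total counts alone, and complex II stood below the other complexes under both. Of the 93 members with enough counts to be tested, 29 rose (31.2%; 23.4% of all 17344 tested genes rose) and 6 fell (6.45%; 25.3% of all tested genes fell), by edgeR's quasi-likelihood test at a Benjamini-Hochberg adjusted p under 0.05. The median log2 fold change was 0.26 over the members and −0.09 over all tested genes. The share of members that rose was thus near the background, and the share that fell was below it. In 35 members all 4 High libraries lay above all 4 Low libraries (23.6% of all tested genes) and in 7 below (24.9%), while in 51 the fractions overlapped. Blocked by animal, the fit called 36 members higher (25.4% of all tested genes) and 7 lower (28.5%). Leaving out each of the 8 libraries in turn kept the call of 26 of the 35 called members. In the fit without the High library of Male2, 26 members rose (20.5% of all tested genes) and 6 fell (23.8%).

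These directions are relative to the scaling. When libraries were scaled by total counts alone, the median of all tested genes moved to −0.64 and that of the members to −0.30, so that 2 members rose (12.6% of all tested genes) and 38 fell (49.1%). The members that rose under both scalings were Ndufc1 and Ndufa4l2, and all 6 that fell under TMM also fell under total counts. The distance between the members' median and that of all genes changed little, from 0.35 under TMM to 0.34 under total counts, with 0.26 to 0.42 over the other settings. A rise of a member below is therefore a rise relative to the TMM scaling of these libraries, and ratios between members within a library, which no scaling touches, are given further on.

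**Figure D1:**
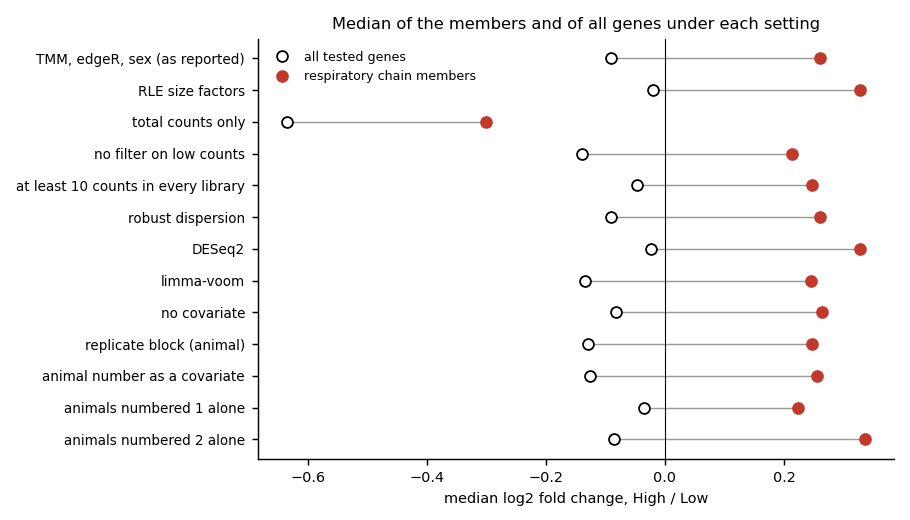
Median log2 fold change of the respiratory chain members (filled) and of all tested genes (open) between Cyto-ID High and Low under each way of scaling, filtering and testing. Under total counts alone both medians lie below 0 (−0.30 and −0.64), under every other setting shown the members' median lies above 0, and the members lie to the right of all genes in each.

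**Figure D2:**
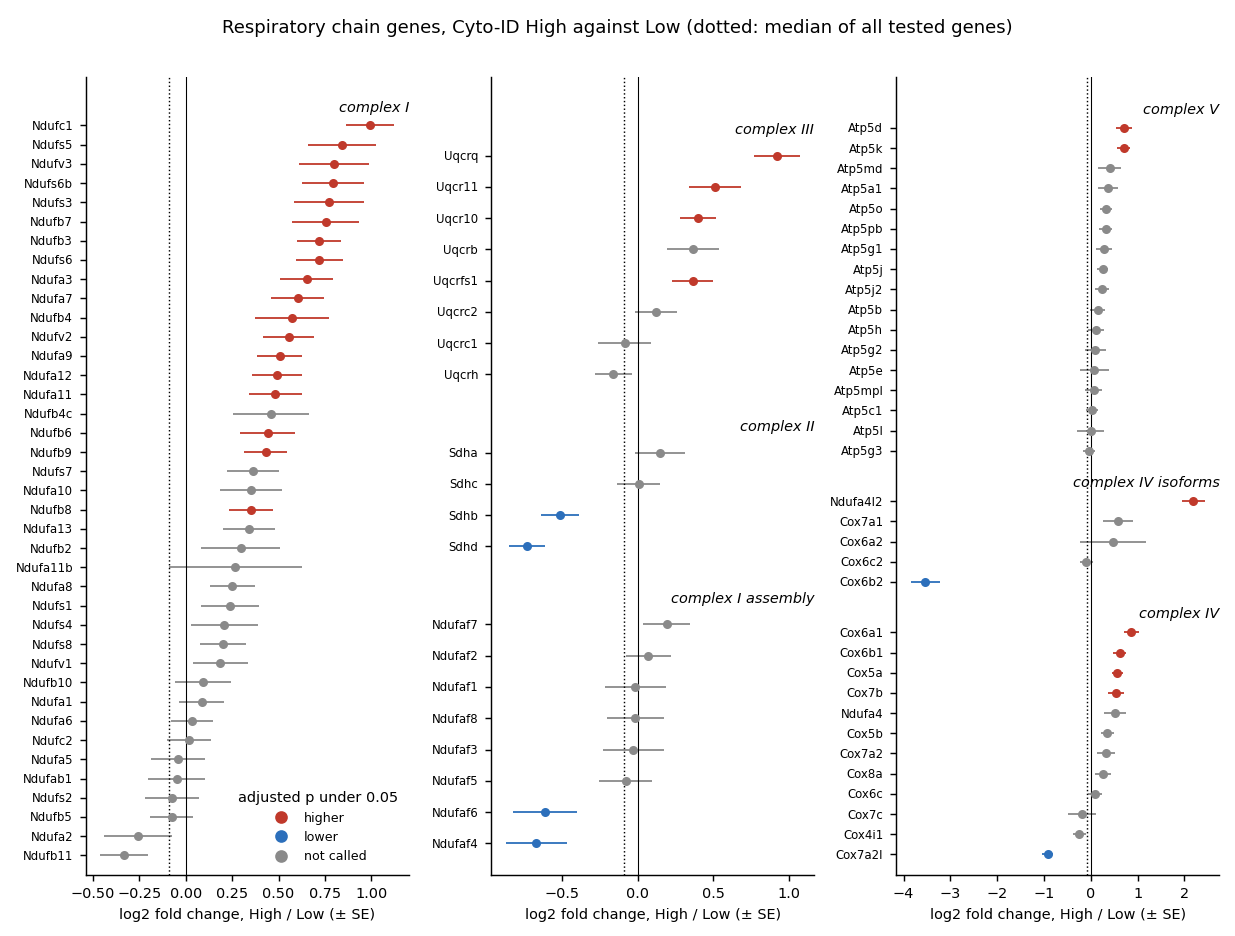
Log2 fold change (± SE) of each tested member between Cyto-ID High and Low (n = 4 libraries each, TMM scaling), by complex, with the dotted line at the median of all tested genes (−0.09). In complex I 18 of 39 members rose and none fell, and in complex II 2 of 4 fell, beside 23.4% of all tested genes that rose and 25.3% that fell; under total counts 14 members of complex I and all 4 of complex II fell, beside 49.1% of all tested genes.

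Complex II had the lowest median of the complexes in every animal. The median difference between High and Low (log2 CPM) of the 39 complex I genes was 0.34 and 0.42 in the females (Female1, Female2) and 0.33 and 0.41 in the males (Male1, Male2; mean 0.37 ± 0.05, SD, n = 4 animals). For the 4 complex II genes it was −0.30, −0.24, −0.42 and −0.12 (mean −0.27 ± 0.12). Complex I exceeded complex II by 0.64, 0.65, 0.74 and 0.53 in the same animals, a difference that scaling does not change. Complex III exceeded complex II by 0.57 ± 0.01 and complex IV by 0.64 ± 0.06 (SD, n = 4 animals). Complex V was at 0.11, 0.40, 0.07 and 0.20, above complex II and below complex I in each animal, in Female2 by 0.02 only. These are medians over genes of the same cells and carry no test.

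**Figure D3:**
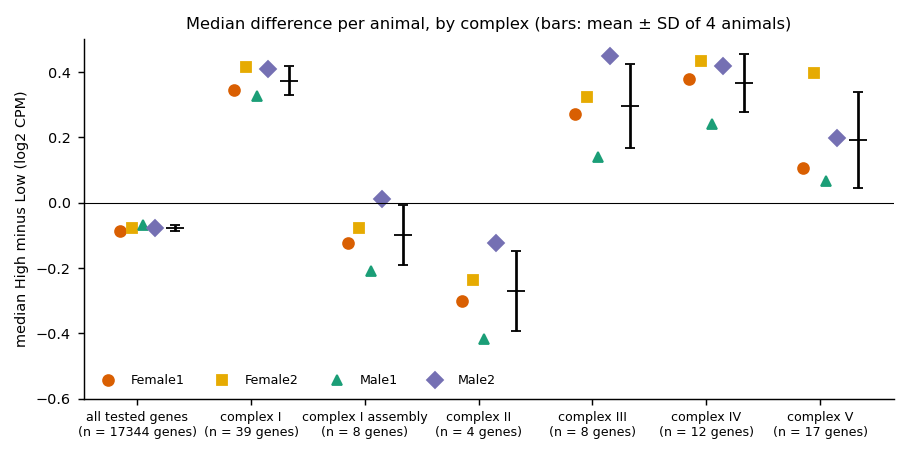
Median High minus Low difference (log2 CPM, TMM scaling) over the genes of each complex in each of the 4 animals, with the mean ± SD beside the points. Complex II lies below 0 in all 4 animals and complexes I, III, IV and V above 0; under total counts the fitted medians of complexes I, III, IV and V fall to between −0.21 and −0.30 and that of complex II to −0.83.

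Complex I, the NADH dehydrogenase, held 18 of the 29 members that rose. These 18 were 46.2% of its 39 genes, beside 23.4% of all tested genes, and none fell, beside 25.3% (in the fit blocked by animal 22 rose and Ndufb11 fell). The median log2 fold change of all 39 genes was 0.35 (−0.21 under total counts). Without its 3 pseudogenes 17 of 36 genes rose, with the same median of 0.35. Of the 29 accessory subunits, which surround the catalytic core, 15 rose (51.7%) with a median of 0.35. Of the 7 nuclear core subunits 2 rose (28.6%, near the 23.4% of all tested genes) with a median of 0.24. Ndufc1, a small accessory subunit of the membrane arm (chr3:51404677-51408988, minus strand), was at 9.54, 8.33, 8.29 and 8.88 CPM in the Low libraries of Female1, Female2, Male1 and Male2. In their High libraries it was at 18.9, 18.6, 16.0 and 16.5 CPM. Every High library was above every Low library, and the fold was 1.99 (log2 0.99, SE 0.13, adjusted p 0.000199, edgeR's quasi-likelihood test). It also rose under total counts (log2 0.43, edgeR adjusted p 0.0267; range over all settings 4.25e-11 to 0.0267).

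The next accessory subunits in order were Ndufs5, Ndufv3, Ndufb7, Ndufb3 and Ndufs6, which, apart from Ndufs5, were named after their values were seen. Ndufs5, on the side of the intermembrane space, went from 4.54, 3.93, 3.54 and 3.99 CPM in Low to 6.48, 7.62, 6.14 and 8.44 CPM in High (log2 0.84, SE 0.18, edgeR adjusted p 0.00399). Its fractions did not overlap, but it has a near-identical copy elsewhere in the genome, so its count is uncertain. Ndufv3, a subunit of the module that takes up electrons from NADH, rose by 0.80 (SE 0.19, edgeR adjusted p 0.00564). Its High libraries spread from 40.4 to 69.7 CPM, with Male2 the highest, and all were above the Low range of 24.3 to 32.9 CPM. Ndufs6 and its processed pseudogene Ndufs6b were counted as higher by 0.72 and 0.79, and how reads were shared between them is not known here.

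Among the core subunits Ndufs3, an early-assembled part of the peripheral arm, rose by 0.77 (SE 0.19, edgeR adjusted p 0.00695). It went from 4.07 to 5.13 CPM in Low to 6.25 to 9.19 CPM in High, with no overlap, and it too has a near-identical copy. Ndufv2, which carries an iron-sulfur cluster near the entry of electrons, rose from 63.0 ± 2.8 to 92.7 ± 13.0 CPM (SD, n = 4 each; log2 0.55, edgeR adjusted p 0.0076), although its fitted difference was −0.01 under total counts. Ndufv1, the subunit that binds NADH, had 115 to 129 CPM in Low and 125 to 185 CPM in High, where 3 libraries lay at 125 to 132 CPM and Male2 at 185. Its difference of 0.19 (SE 0.15) did not pass (edgeR adjusted p 0.338). Ndufs1, the largest core subunit, had 75.5 to 84.7 CPM in Low and 73.9 to 113 CPM in High, and its difference of 0.24 did not pass either (edgeR adjusted p 0.248).

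At the lower end of complex I, Ndufb11 had 61.6 to 69.5 CPM in Low and 45.1 to 59.6 CPM in High. The fractions did not overlap, yet its difference of −0.33 (SE 0.13) missed the threshold (edgeR adjusted p 0.0537; range over all settings 0.000263 to 0.157). It passed in the fit blocked by animal, at an edgeR adjusted p of 0.0252. Of the other 20 complex I genes that were not called, 15 had a positive and 5 a negative fitted difference. Ndufb4, Ndufb6 and Ndufb8 rose with adjusted p-values of 0.0383, 0.0312 and 0.0324 (edgeR), but their calls were lost when 6, 6 and 7 of the 8 libraries were left out in turn, at edgeR adjusted p-values of up to 0.109, 0.0966 and 0.094. The calls stood only without Low Male1 or High Male2 for Ndufb4, without High Female2 or High Male2 for Ndufb6 and without Low Male2 for Ndufb8. Ndufa11 lost its call without the High library of Male2 alone (edgeR adjusted p 0.0575).

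The 8 assembly factors of complex I with an Ndufaf symbol, which help build the complex but are not part of it, had a median of −0.02 (−0.60 under total counts). Under TMM none rose and 2 fell, which is 25.0%, near the 25.3% of all tested genes that fell. Under total counts all 8 fell, beside 49.1% of all tested genes. Ndufaf4 had 17.2, 14.3, 18.8 and 14.4 CPM in Low and 11.6, 11.4, 11.2 and 6.58 CPM in High. All High libraries were below all Low libraries, with Male2 the lowest, and the fall was 1.60-fold (log2 −0.68, SE 0.20, edgeR adjusted p 0.0199). Ndufaf6 fell too, with a difference of −0.61 (SE 0.21; adjusted p 0.0361 in edgeR). Without the Low library of Female1, Male1 or Male2 both lost their call, and Ndufaf6 also without the High library of Female1, Female2 or Male2, at edgeR adjusted p-values of up to 0.0835 for Ndufaf4 and 0.121 for Ndufaf6. The other 6 factors had differences between −0.08 and 0.19 and overlapping fractions. The median difference of complex I exceeded that of its assembly factors by 0.47 ± 0.06 (SD, n = 4 animals).

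Complex II, succinate dehydrogenase, had 2 genes that fell and 2 that were not called. With 4 genes, a share of 50.0% beside 25.3% of all tested genes rests on few values. Sdhd, a membrane anchor (chr9:50596357-50603812, minus strand), had 67.4, 62.6, 73.3 and 64.6 CPM in the Low libraries and 40.3, 41.4, 40.0 and 39.1 CPM in the High libraries. The High values lay close together and below every Low value. The fall was 1.67-fold (log2 −0.74, SE 0.12, edgeR adjusted p 0.000608; range over all settings 1.56e-07 to 0.0161). Sdhb, the iron-sulfur subunit (chr4:140961203-140979193, plus strand), had 61.2, 63.9, 66.4 and 71.1 CPM in Low and 43.5, 43.5, 42.4 and 54.1 CPM in High. Here too the fractions did not overlap, with the High library of Male2 apart from the other High libraries, and the fall was 1.43-fold (log2 −0.52, SE 0.12, edgeR adjusted p 0.00651). In the animals numbered 2 alone the call of Sdhb was lost (log2 −0.47, edgeR adjusted p 0.0568).

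The remaining subunits of complex II were not called. Sdha, the catalytic flavoprotein, had 121, 136, 142 and 133 CPM in Low and 113, 154, 134 and 190 CPM in High (log2 0.15, SE 0.17, edgeR adjusted p 0.52). It was higher in High in Female2 and Male2 and lower in Female1 and Male1. Sdhc, the other membrane anchor, had 79.0 to 92.9 CPM in Low and 76.0 to 103 CPM in High (log2 0.01, SE 0.14, edgeR adjusted p 0.979). Both genes fell under total counts (log2 −0.44 and −0.57). Within a library and per kilobase of transcript, Sdhb stood to Sdha at 1.19 to 1.36 in Low and 0.715 to 0.98 in High. Likewise Sdhd stood to Sdhc at 1.79 to 2.20 in Low and 0.979 to 1.37 in High. Neither ratio overlapped between the fractions.

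**Figure D4:**
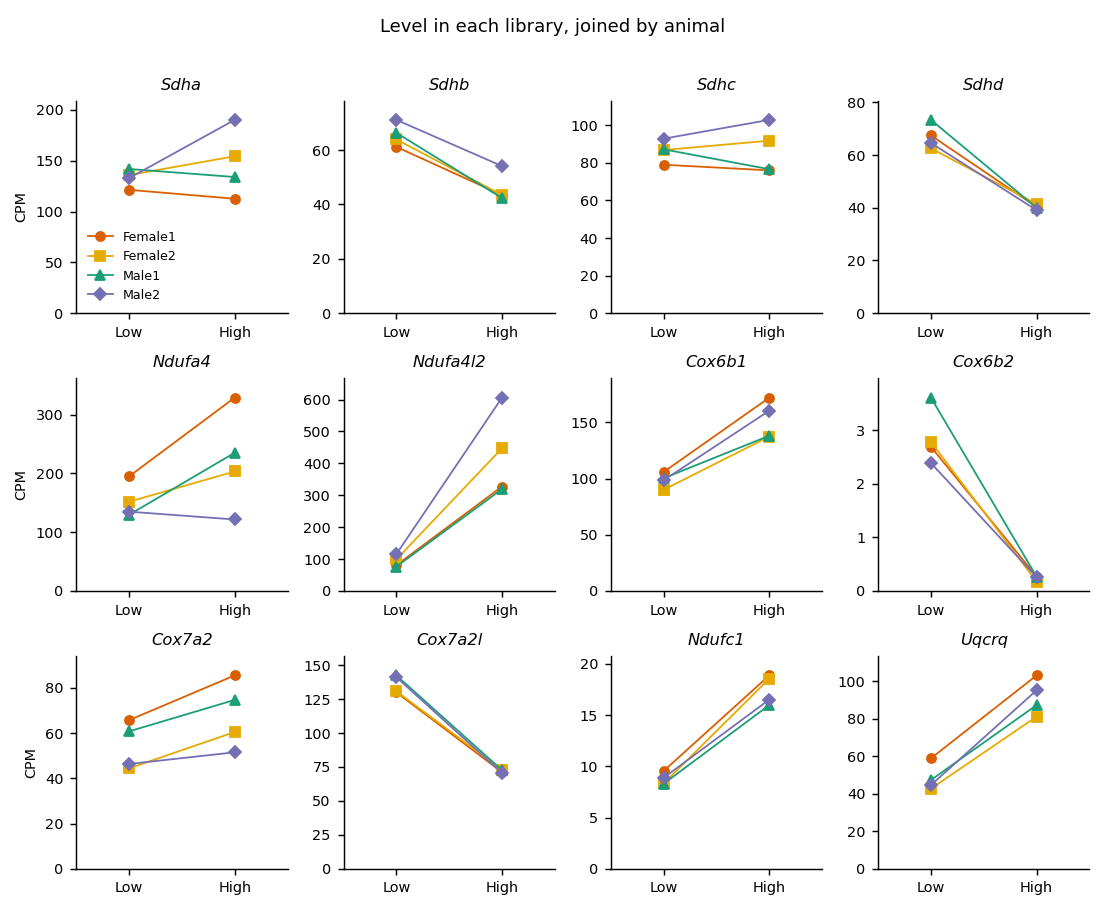
Level (CPM, TMM scaling) of 12 members in the Low and High library of each animal, joined by a line for each animal. Sdhb, Sdhd, Cox7a2l and Cox6b2 go down and Ndufa4l2, Cox6b1, Ndufc1 and Uqcrq up in all 4 animals without overlap, while Sdha, Sdhc, Ndufa4 and Cox7a2 overlap; under total counts the fitted differences of Sdha, Sdhc and Cox7a2 are negative.

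In complex III, the cytochrome bc1 complex, 4 of 8 subunits rose and none fell (50.0% and 0.0%, beside 23.4% and 25.3% of all tested genes), with a median of 0.36 (−0.21 under total counts). Without Uqcr10, Uqcr11 and Uqcrb, which have near-identical copies, the median was 0.12, and 2 of the 4 calls, those of Uqcr11 and Uqcrfs1, depended on which libraries were kept. Uqcrq, which sits beside cytochrome b (chr11:53427922-53430831, minus strand), went from 58.8, 42.7, 47.3 and 44.6 CPM in Low to 103, 81.1, 87.2 and 95.1 CPM in High. The lowest High library was above the highest Low library, and the fold was 1.90 (log2 0.92, SE 0.15, edgeR adjusted p 0.000679). Under total counts its difference was 0.37 and missed the threshold (edgeR adjusted p 0.0687, the highest of all settings, from 8.12e-09). Uqcr10 rose by 0.40 under TMM (SE 0.12, edgeR adjusted p 0.0202), with −0.16 under total counts.

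Uqcr11 and Uqcrfs1 rose under TMM by 0.51 and 0.36 and had differences of −0.04 and −0.21 under total counts. Uqcr11 had 20.01 to 29.6 CPM in Low and 26.7 to 40.4 CPM in High, with overlap (SE 0.17, edgeR adjusted p 0.0336). Uqcrfs1, the Rieske iron-sulfur protein of the catalytic core, had 90.8 to 106 CPM in Low and 113 to 141 CPM in High, without overlap (SE 0.13, edgeR adjusted p 0.0473). Each lost its call in 6 of the 8 fits with a library left out, at edgeR adjusted p-values of up to 0.101 and 0.122. These were, for Uqcr11, the fits without the Low library of Female2, Male1 or Male2 or the High library of Female1, Male1 or Male2. For Uqcrfs1 they were those without the Low library of Female1, Female2 or Male1 or the High library of Female1, Female2 or Male2. The core proteins Uqcrc1 and Uqcrc2 were not called (log2 −0.09 and 0.12), and all of Uqcrc1's High libraries but that of Male2 (275 CPM) lay at 170 to 197 CPM, against 185 to 245 CPM in Low.

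Complex IV, cytochrome c oxidase, had 4 genes that rose and 1 that fell among its 12 common subunits (33.3% and 8.33%, beside 23.4% and 25.3% of all tested genes), with a median of 0.34 (−0.21 under total counts; 0.52 without the subunits that have near-identical copies). Cox6a1, the common isoform of a regulatory subunit, went from 92.4, 72.5, 77.4 and 85.6 CPM in Low to 148, 138, 127 and 184 CPM in High. The fractions were far apart, with Male2 the highest of the High libraries (log2 0.86, SE 0.16, edgeR adjusted p 0.00162). Cox6b1, which faces the intermembrane space, rose from 98.8 ± 6.5 to 152 ± 17 CPM (log2 0.62, SE 0.14, edgeR adjusted p 0.00448). Cox5a rose under TMM from 55.1 to 61.4 CPM to 76.9 to 93.7 CPM (log2 0.57, edgeR adjusted p 0.00375), while its difference under total counts was −0.0027. Cox7b rose by 0.54 with overlapping fractions (edgeR adjusted p 0.0229), but not when the Low library of Female2 or Male2 or the High library of Female1 or Male1 was left out (edgeR adjusted p up to 0.0706), and it has near-identical copies.

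Cox4i1, the subunit through which ATP inhibits the enzyme, was the most abundant complex IV transcript per kilobase in Low and was not called. It had 227 to 280 CPM in Low and 202 to 239 CPM in High and was lower in High in each animal (log2 −0.24, SE 0.14, edgeR adjusted p 0.192). Cox5b had 20.8 to 25.96 CPM in Low and 27.7 to 37.1 CPM in High without overlap, but did not pass (log2 0.35, edgeR adjusted p 0.0632). Cox7a2 had 44.4 to 65.7 CPM in Low and 51.5 to 85.5 CPM in High (log2 0.32, edgeR adjusted p 0.214). In the fit blocked by animal both passed, Cox5b at an edgeR adjusted p of 0.0314 and Cox7a2 at 0.0358. Cox8a (log2 0.26, edgeR adjusted p 0.231) was not called.

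Cox7a2l, known as a factor that links complexes III and IV into supercomplexes (chr17:83501918-83517330, minus strand), was the only common complex IV gene that fell. It had 130, 131, 143 and 141 CPM in the Low libraries and 71.2, 72.9, 72.7 and 70.6 CPM in the High libraries. The High values were nearly identical in the 4 animals, and the fall was 1.89-fold (log2 −0.92, SE 0.12, edgeR adjusted p 0.000169; range over all settings 4.35e-13 to 0.00376). A near-identical copy, Gm6969, fell alongside it (50.0 ± 7.1 to 27.3 ± 2.2 CPM, log2 −0.87), and how reads were shared between them is not known here. Its relative Cox7a2, a subunit proper, was not called, and per kilobase the ratio of Cox7a2l to Cox7a2 was 1.21 to 1.87 in Low and 0.51 to 0.839 in High, with no overlap.

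The isoforms and paralogues of complex IV subunits held the widest differences among the members. Ndufa4l2, a paralogue of the complex IV subunit Ndufa4 that is known as a hypoxia-induced gene (chr10:127514967-127517154, plus strand), had 80.8, 98.9, 76.5 and 116 CPM in Low. In High it had 327, 447, 319 and 606 CPM. All High libraries were above all Low libraries, with Male2 the highest, and the fold was 4.56 (log2 2.19, SE 0.25, edgeR adjusted p 7.76e-05). It also rose under total counts (log2 1.59, edgeR adjusted p 0.000115; highest over all settings 0.000635). Its exons overlap those of Shmt2 on the other strand, and whether counting used strand is not stated; Shmt2 itself went from 114 ± 4 to 75.5 ± 15.5 CPM. Ndufa4 had 130 to 195 CPM in Low and 122 to 329 CPM in High, with the highest value in Female1 and the lowest in Male2, and did not pass (log2 0.52, SE 0.24, edgeR adjusted p 0.0943). Without the High library of Male2 it passed, at a log2 fold change of 0.70. Per kilobase, Ndufa4l2 stood to Ndufa4 at 0.271 to 0.559 in Low and 0.65 to 3.25 in High, without overlap.

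Cox6b2, known as the isoform of Cox6b1 used in testis, was scarce in Cyto-ID High. It had 87, 101, 116 and 79 counts in the Low libraries and 7, 4, 7 and 5 counts in the High libraries, that is 2.69, 2.78, 3.604 and 2.39 CPM against 0.270, 0.174, 0.267 and 0.257 CPM. The fractions did not overlap, and the fall was 11.6-fold (log2 −3.54, SE 0.31, edgeR adjusted p 2.32e-05; highest over all settings 0.000883). Relative to Cox6b1 in the same library and per kilobase, Cox6b2 stood at 0.0256 to 0.0379 in Low and 0.00134 to 0.00204 in High. It was thus a small part of the pair in Low already.

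The muscle isoforms were scarce in both fractions. Cox6a2 had 4 to 11 counts a library in Low and 0 to 15 in High, and its difference of 0.48 (SE 0.71) did not pass (edgeR adjusted p 0.629) and was −0.01 under total counts. Cox7a1 had 15 to 24 counts in Low and 16 to 25 in High (log2 0.58, edgeR adjusted p 0.176). Cox4i2, known as a lung isoform, had 4 to 8 counts in Low and 0 to 10 in High, and Cox8b 2 to 6 and 0 to 3, so that neither was tested. Cox7b2 and Cox8c had no count in any library, which allows up to 3 counts in each, or 0.0824 to 0.154 CPM. These limits cover counting error only. Cox6c2, a processed pseudogene and near-identical copy of Cox6c, was not called (log2 −0.10), nor was Cox6c (log2 0.10).

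Complex V, the ATP synthase, had 2 genes that rose among 17 and none that fell. Both shares, 11.8% and 0.0%, were below those of all tested genes (23.4% and 25.3%), and the median was 0.25 (−0.30 under total counts). The fit blocked by animal called 3 of the 17 higher and none lower, and under total counts none rose and 5 fell. Atp5d, the delta subunit in the central stalk, had 167, 159, 167 and 194 CPM in Low and 254, 247, 237 and 391 CPM in High. The High libraries of Female1, Female2 and Male1 lay close together and that of Male2 far above them (log2 0.71, SE 0.18, edgeR adjusted p 0.00829). Its exons overlap those of Cbarp on the other strand, which rose by 0.48. Atp5k, the small subunit e of the membrane part, went from 29.4, 26.3, 27.2 and 23.0 CPM in Low to 47.4, 41.3, 36.3 and 47.3 CPM in High, without overlap (log2 0.71, SE 0.14, edgeR adjusted p 0.00209). It has a near-identical copy. Under total counts the differences of Atp5d and Atp5k were 0.13 and 0.14 and not called (edgeR adjusted p 0.413 and 0.378).

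The catalytic subunits of the ATP synthase were not called. Atp5b, the beta subunit, had the highest level per kilobase of all members (604 CPM per kilobase in Low, 669 in High). It had 1129, 1139, 1171 and 1190 CPM in Low and 1149, 1303, 1154 and 1516 CPM in High, with overlap (log2 0.15, SE 0.16, edgeR adjusted p 0.495). Atp5a1, the alpha subunit, had 183 to 241 CPM in Low and 197 to 381 CPM in High (log2 0.37, SE 0.22, edgeR adjusted p 0.195), where Female1 and Male1 lay at 197 and 209 CPM and Female2 and Male2 at 295 and 381 CPM. Both fitted differences were negative under total counts (−0.43 and −0.23). The ratio of Atp5d to Atp5b per kilobase was 0.19 to 0.221 in Low and 0.258 to 0.35 in High. Of the other 13 genes of complex V, 11 had a positive and 2 a negative fitted difference.

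Levels between members differed far more than between fractions. Per kilobase of transcript, Atp5b was followed in Low by Cox4i1 (343 CPM per kilobase), Ndufa4 (251), Atp5g3 (237), Uqcrh (194) and Cox8a (194). In the means over the High libraries, Atp5b was followed by Ndufa4l2 (455 CPM per kilobase, against 99.5 in Low). Ndufa4 was at 364 CPM per kilobase, Cox4i1 at 289, Cox6a1 at 261 and Cox6b1 at 246. By library, Ndufa4l2 stood above Ndufa4 only in High Female2 and Male2 (ratios of 1.44 and 3.25). In High Female1 and Male1 it stood below (0.65 and 0.887). The ratio of Cox6a1 to Cox4i1 was 0.377 to 0.463 in Low and 0.803 to 1.05 in High, so that Cox6a1 went from less than Cox4i1 to about its level. Subunits with a near-identical copy had lower counted levels (median 31.0 CPM per kilobase in Low, n = 23) than those without (58.3, n = 52). Of the 23 members with such a copy 10 rose (43.5%) and 1 fell (4.35%). Of the 66 tested members for which no copy was found and that are no pseudogenes, 18 rose (27.3%, near the 23.4% of all tested genes) and 5 fell (7.58%, beside 25.3%). These 66 include Atp5md and Atp5pb, which had no position or transcript length in GENCODE, so that their lack of a copy is not established.

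Cyc1, the cytochrome c1 of the complex III core, whose symbol is outside the rule, rose under TMM from 96.2 ± 2.6 to 131 ± 20 CPM (log2 0.45, edgeR adjusted p 0.0253; −0.13 under total counts). It lost its call without the Low library of Male1 or the High library of Female2 or Male2 (edgeR adjusted p up to 0.0738). Cycs, the cytochrome c of somatic cells, was at 19.0 ± 2.9 and 18.9 ± 5.7 CPM and was not called (log2 −0.04, edgeR adjusted p 0.893). Among the 13 subunits encoded in mitochondrial DNA 1 rose, and their median was −0.03 (under total counts −0.60, beside −0.64 for all tested genes, and 10 fell, beside 49.1% of all tested genes). The rise of 1 in 13 is 7.69%, below the 23.4% of all tested genes, and in all 13 the fractions overlapped. mt-Nd5 rose under TMM from 668 ± 95 to 943 ± 154 CPM (log2 0.51, edgeR adjusted p 0.0353), with −0.07 under total counts. Its call was lost without the Low library of Female1, Female2 or Male1 or the High library of Female2 or Male2 (edgeR adjusted p up to 0.109).

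Genes that build the complexes from outside the symbol rule moved in both directions. Of 10 further assembly factors of complex I, 3 rose and 1 fell (30.0% and 10.0%, beside 23.4% and 25.3% of all tested genes), and the fit blocked by animal called 4 higher and 2 lower. Acad9, related to the enzymes of fatty acid oxidation, went from 57.0, 70.3, 60.7 and 73.6 CPM in Low to 169, 240, 219 and 281 CPM in High, a 3.46-fold rise (log2 1.79, edgeR adjusted p 3.97e-05) that was also called under total counts (log2 1.21). Dmac2 fell from 19.7 ± 1.6 to 10.6 ± 1.3 CPM (log2 −0.90, edgeR adjusted p 0.000704). Of the 4 complex II assembly factors 1 rose (25.0%, near the 23.4% of all tested genes) and none fell, with a median of −0.09. Under total counts 1 rose and 3 fell. The gene that rose, Sdhaf1, helps insert the iron-sulfur clusters of Sdhb and was named after its values were seen. It rose 2.88-fold (2.27 ± 0.42 to 6.55 ± 1.40 CPM, edgeR adjusted p 0.000447), and it too was called under total counts. Sdhb and Sdhaf1 thus went in opposite directions.

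For complex III 1 of 6 assembly factors rose and 1 fell under TMM (16.7% each, below the shares of all tested genes). Under total counts none of the 6 rose and 4 fell. Uqcc2 rose by 0.71 (edgeR adjusted p 0.00886), and Bcs1l, which inserts the Rieske protein, fell by 0.61 (edgeR adjusted p 0.0101; in the animals numbered 2 alone 0.47, not called). Of 17 tested complex IV assembly factors 5 rose (29.4%, near the 23.4% of all tested genes) and none fell, while the fit blocked by animal called 6 higher and 3 lower (Cox15, Sco1 and Coa3, edgeR adjusted p 0.0133, 0.0287 and 0.034; 28.5% of all tested genes were lower in that fit). Under total counts 2 of the 17 rose and 9 fell (12.6% and 49.1% of all tested genes did), with a median of −0.44. The 5 that rose under TMM were led by Pet100 (6.79 ± 1.12 to 15.8 ± 2.5 CPM, log2 1.22, edgeR adjusted p 0.000209), which was also called under total counts. Of these 5, Cox14 lost its call in each fit that left out 1 library (edgeR adjusted p up to 0.104) and Taco1 in 6 of them (up to 0.141). Of 4 complex V assembly factors 1 rose (25.0%, near the background) and none fell, while the blocked fit also called Atpaf1 lower (edgeR adjusted p 0.0396). Atpaf2 rose under TMM (log2 0.52, edgeR adjusted p 0.0204), with −0.07 under total counts and no call without the High library of Female2 or Male2 (edgeR adjusted p up to 0.0659). In the synthesis of coenzyme Q, the carrier between complexes I or II and III, 3 of 13 genes rose (23.1%, near the 23.4% of all tested genes) and 1 fell. The blocked fit called 4 higher and 1 lower, and under total counts 2 rose and 7 fell. Of the 3 that rose, Coq2 lost its call in 5 of the 8 fits with a library left out (edgeR adjusted p up to 0.102), while Pdss2 and Coq4 kept theirs. Pdss2, which makes the isoprenoid tail of coenzyme Q, rose by 1.17 (edgeR adjusted p 0.000638). Coq8a, a kinase-like regulator of the pathway, fell 14.2-fold, from 32.95, 72.6, 50.3 and 58.3 CPM in Low to 2.47, 3.70, 2.56 and 6.74 CPM in High (log2 −3.83, edgeR adjusted p 3.18e-05).

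Of 12 regulators of mitochondrial gene expression 5 fell (41.7%, beside 25.3% of all tested genes) and 1 rose (8.33%, beside 23.4%). The fit blocked by animal called 8 lower (28.5% of all tested genes), adding Tfb1m, Tfb2m and Yy1. The list had a median of −0.50 (−1.06 under total counts). Ppargc1b, a coactivator of mitochondrial biogenesis, fell 3.84-fold, from 9.14, 10.0, 9.38 and 8.78 CPM in Low to 1.85, 2.83, 2.14 and 2.93 CPM in High (log2 −1.94, edgeR adjusted p 5.3e-05). Tfam, which packages mitochondrial DNA, fell from 26.7 ± 1.4 to 13.8 ± 2.7 CPM (log2 −0.96, edgeR adjusted p 0.000646). Nrf1 fell by 0.67 (edgeR adjusted p 0.00203; in the animals numbered 2 alone by 0.47, not called). Gabpa fell by 0.46 with overlapping fractions (edgeR adjusted p 0.0449), and that call was lost without any of the Low libraries of Female2, Male1 and Male2 or the High libraries of Female1, Male1 and Male2 (edgeR adjusted p up to 0.134). Esrra, a nuclear receptor that binds such coactivators, rose from 47.6 ± 8.9 to 85.1 ± 14.6 CPM (log2 0.83, edgeR adjusted p 0.00353), but was not called under total counts (log2 0.25). Ppargc1a was low and not called (2.86 ± 0.96 and 2.03 ± 0.68 CPM, edgeR adjusted p 0.274).

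In the citric acid cycle, to which complex II belongs, 2 of 13 genes rose and 2 fell under TMM (15.4% each, below the shares of all tested genes). The fit blocked by animal called 3 higher and 3 lower. Under total counts none of the 13 rose and 9 fell, beside 49.1% of all tested genes that fell, with a median of −0.53. Ogdh, of the oxoglutarate dehydrogenase complex, rose by 0.83 (edgeR adjusted p 0.00427) and Idh3g, a subunit of isocitrate dehydrogenase, fell from 89.6 ± 6.7 to 45.4 ± 9.0 CPM (log2 −0.98, edgeR adjusted p 0.000426). Of 10 genes of the outer and inner mitochondrial membranes 2 rose and 2 fell, shares near those of all tested genes. The blocked fit called 3 of them higher and 2 lower, and under total counts none rose and 5 fell. Vdac1, the main channel of the outer membrane, rose by 0.76 (edgeR adjusted p 0.00564) and its relative Vdac3 fell by 0.61 (edgeR adjusted p 0.00501). These 4 named genes were called in each fit that left out 1 library, as were Idh3a and Tomm20, which fell. Cs, the other gene of the cycle that rose, lost its call without the High library of Female2 or Male2 (edgeR adjusted p up to 0.0663). Timm23, the other membrane gene that rose, lost its call without the High library of Female1 or Male2 (edgeR adjusted p up to 0.0571). Under total counts Ogdh and Vdac1 had positive differences that were not called.

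The promoters of the members held either motif more often than promoters at large. RefSeq gave 81 promoters for 76 of the 97 members. The NRF1 core was found in 23.5% of them and in 5.19% of the 32851 promoters of all genes, and the GABP core in 17.3% and 6.91%. At least 1 of these was found in 11.4% of all promoters, 35.8% of the members' promoters, 44.4% of the 27 promoters of members that rose, 40.0% of the 5 of members that fell and 31.9% of the 47 of members not called; the other 2 belong to members not tested. In the sequences given above, Cox6a1, which rose, and Sdhd, which fell, both carry the 2 motifs. The ERRA core AAGGTCA was in 6.17% of the members' promoters and 4.08% of all, and the YY1 core AAGATGGC in 1.23% and 1.56%. Both strands were searched, a promoter counts once for a motif whether or not matches overlap, and the shares carry no test.

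Members with shorter transcripts tended to be higher in the animals numbered 1. Across the 87 tested members with a known principal transcript, its length correlated with the difference between animals numbered 1 and 2 (Spearman −0.46, over both fractions). Within the members under 700 bases that correlation was −0.14, and within the longer ones −0.28. With the difference between High and Low, length correlated only weakly (−0.16 in all, −0.07 within the members under 700 bases and −0.01 within the longer ones). The genes share the libraries, so these are descriptions. Of the 32 members under 700 bases 25 were higher in the animals numbered 1, and of the 55 longer ones 20 were. The median difference between the animals was 0.10 in the short and −0.11 in the longer members. Between High and Low the medians were 0.38 and 0.20. Of the short members 43.8% rose and 3.12% fell, and of the longer ones 25.5% and 9.09%, beside 23.4% and 25.3% of all tested genes. What the numbers 1 and 2 stand for is not given in the labels, and the part of length in the results was not tested.

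**Figure D5:**
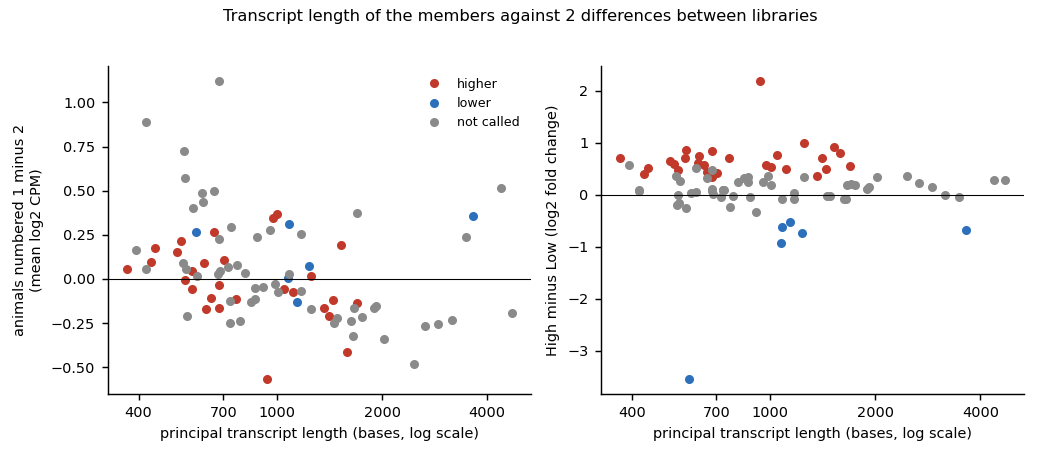
Length of the principal transcript (bases, log axis) of 87 tested members against the difference between animals numbered 1 and 2 (left, mean log2 CPM) and between Cyto-ID High and Low (right, log2 fold change, TMM scaling). Short members tend to lie above 0 on the left (25 of 32 under 700 bases), and on the right 14 of those 32 and 14 of the 55 longer members rose (23.4% of all tested genes rose); the scale on the right is wider.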

How the data were processed

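The values deposited by the authors are unnormalized counts for each gene symbol and library, in 1 table, as their whole numbers and unequal totals show. The submitters' processing notes name STAR 2.7.3, DESeq2 and the build GRCm38, with no role for each. The counting tool, the annotation and the use of strand are not given in the sources used here.

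Libraries were grouped by the label of the Cyto-ID fraction. Counts were fitted in R 4.3.3 with edgeR 4.0.16 (filterByExpr by fraction, TMM, glmQLFit and glmQLFTest, sex as a covariate) over all 8 libraries. All tests were two-sided, with Benjamini-Hochberg adjustment over the 17344 tested genes and a threshold of 0.05. The SE of a log2 fold change comes from its size and its F statistic. The steps were tested on simulated data. CPM were computed with TMM-scaled totals, and a prior count of 2 was added for log2 CPM. The 4 libraries of a fraction come from separately named animals, so p-values measure the spread between them. The 2 libraries of an animal share its name. They were taken as pairs in the differences per animal and in the fit blocked by animal. The main fit has no term for the animal, so its p-values do not use the pairing. The correlation between the 2 libraries of an animal in their deviations from the fraction means was 0.43, 0.32, −0.02 and 0.28.

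The members, complexes and pathway lists were chosen with earlier results of these data known. The rule for named genes took the 2 largest changes in each direction per complex and the largest per pathway list (adjusted p under 0.05, mean of at least 5 CPM, the same sign in all 4 animals) and a fixed set of genes; other members were named after their values were seen. Positions, lengths and exon overlaps came from GENCODE M21, in which 94 members were found uniquely, and 30 members overlap exons of another gene. A near-identical copy means 95% identity over at least 100 bases of coding sequence elsewhere. Promoters are from RefSeq, GRCm38.p6.

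Alternatives were RLE size factors, total counts alone, a fit without the low-count filter and one requiring 10 counts in all 8 libraries, robust dispersion estimates, limma-voom (limma 3.58.1), DESeq2 1.42.0, a fit without sex, a replicate block by animal, and each library left out. Added after seeing the data were the animal number as a covariate, the animals numbered 1 or 2 alone, and the members without pseudogenes and those with a near-identical copy. Protein sequences were not used here.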

Additional observations from a re-analysis of the deposited data

Results flagged for a closer look

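Dixon's test at the 95% level was applied to 112 groups of 4 values. A group held the levels of a gene in the libraries of 1 fraction, or the median differences of a complex in the 4 animals. In 8 groups, all of gene levels, 1 value lay far from the other 3, which chance gives in about 1 of 20 groups. In 7 of the 8 that value came from the High library of Male2. There Atp5d was at 391 CPM (237, 247 and 254 in the other High libraries), Ndufv1 at 185 CPM (125, 128 and 132), Sdhb at 54.1 CPM (42.4, 43.5 and 43.5) and Cox5b at 37.1 CPM (27.7, 28.7 and 29.3). Esrra was at 107 CPM in it (76.5, 77.9 and 79.2) and Idh3g at 58.9 CPM (40.1, 40.7 and 41.9), while Ndufaf4 was low at 6.58 CPM (11.2, 11.4 and 11.6). That library also had the lowest TMM factor, 0.679. The remaining value was Cox6b2 in High Female2, at 0.174 CPM (0.257, 0.267 and 0.270), which rests on 4 counts. Without the High library of Male2, 26 members rose (20.5% of all tested genes) and 6 fell (23.8%). The part of that library's other properties in these values was not tested.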

How the results depend on the processing

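Scaling moved the results most. Under total counts alone 2 members rose (12.6% of all tested genes), 38 fell (49.1%), and the median over the members turned to −0.30, with −0.21 for complexes I, III and IV and −0.30 for complex V. Under that scaling the differences of Atp5a1 (−0.23), Atp5b (−0.43), Atpaf2 (−0.068), Cox5a (−0.0027), Cox5b (−0.22), Cox6a2 (−0.0082), Cox7a2 (−0.21), Cox8a (−0.32), Cyc1 (−0.13), Ndufs1 (−0.34), Ndufv1 (−0.39), Sdha (−0.44), Sdhc (−0.57), Uqcr11 (−0.038), Uqcrfs1 (−0.21) and mt-Nd5 (−0.073) also changed sign. Of 51 tested named genes, 15 kept direction and call in every setting and 32 in every setting other than total counts, and 33 kept direction in every setting. Among the 66 tested members for which no near-identical copy was found and that are no pseudogenes 18 rose (27.3%, against 31.2% of all tested members).

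With the animal as a replicate block 36 members rose (25.4% of all tested genes) and 7 fell (28.5%), with a median of 0.25. Among the named genes the block changed the calls of Cox5b and Cox7a2 and the sign of Sdhc (−0.0037). Leaving out 1 library gave 23 to 28 members that rose (19.6% to 23.0% of all tested genes), 4 to 6 that fell (20.6% to 24.1%) and medians of 0.21 to 0.28.

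The other changes of sign were small. The complex I assembly factors' median was 0.042 with RLE size factors and with DESeq2, 0.032 in the animals numbered 2 alone, and −0.088 to 0.047 with a library left out. Cycs was at 0.029 with RLE and with DESeq2, 0.095 in the animals numbered 2 alone, and −0.17 to 0.12 with a library left out. Sdhc was at −0.036 without a filter, −0.020 with at least 10 counts, −0.0021 with limma-voom, −0.0032 with the animal number as a covariate, −0.075 in the animals numbered 1 alone, and −0.081 to 0.093 with a library left out. Sdha was at −0.049 in the animals numbered 1 alone, and Uqcrc1 at 0.026 in those numbered 2 alone and −0.25 to 0.035 with a library left out. Cox6a2 was at −0.065 with limma-voom and −0.23 to 0.80 with a library left out. The causes were not tested. Counts of under 20 a library limit Cox6a2, Cox4i2 and Cox8b.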
